A study of Mus musculus with 6 samples.

Results

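Genes by which an antigen-presenting cell tells a T cell to respond or to stop were examined together with Cd28, a receptor that reads some of them. They were the rows with the symbols Cd80, Cd86, Icosl, Cd274, Pdcd1lg2, Cd40, Cd83 and Cd28, which is 8 of the 21936 genes listed for each library, and each symbol named 1 row. RNA was sequenced from sorted mouse macrophages in 2 groups of 3 libraries, with 15422154 to 18418903 reads assigned to genes per library. Both groups carried ALKBH5flox/flox, loxP-flanked alleles of an RNA demethylase gene, and APOE-/-. The libraries labelled CKO came from mice that carried Lyz2-Cre in addition, a Cre that is active in macrophages and other myeloid cells such as neutrophils, and those labelled WT from mice without it. All animals had been on a high-fat diet for 4 months, and the labels give no age, tissue of origin, sorting marker or word on whether each library was a mouse of its own. P-values therefore measure how far these libraries vary, possibly for technical reasons.

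Both checks of the targeted genes went against the labels, so every direction refers to the libraries as labelled. Alkbh5, which the label calls deleted, read 3.87 ± 0.0879 FPKM (fragments per kilobase of gene, scaled to the library's depth; SD, n = 3, as throughout) in the libraries labelled WT, against 8.75 ± 0.350 in those labelled CKO. Apoe, labelled null in both groups, read 1635 ± 29.3 against 95.02 ± 4.69 FPKM, and whole-gene values cannot show whether a transcript was intact. Lyz2 read 15116 ± 992 against 6556 ± 211 FPKM. The labelled cell type was checked against 18 macrophage core markers. Of these, 17 were tested, 7 rose and 10 fell, beside 30.5% higher and 50.5% lower over all genes tested. The summed level of the 18 was 19185 to 21119 FPKM in the libraries labelled WT, against 11005 to 11370 in those labelled CKO. Most of that sum was Lyz2 in both groups. Adgre1, the gene of the F4/80 antigen, read 222 ± 2.98 against 778 ± 19.5 FPKM.

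T cells need a second signal beside antigen. CD80 and CD86, ligands of the B7 family on antigen-presenting cells, give it through CD28 and are competed for by the inhibitory receptor CTLA-4, while ICOS ligand binds ICOS. PD-L1, encoded by Cd274, and PD-L2, encoded by Pdcd1lg2, engage the inhibitory receptor PD-1. CD40 is a receptor of macrophages, dendritic cells and B cells for CD40 ligand on T cells and signals through TRAF adaptors to NF-kB, and CD83 is a surface protein of mature dendritic cells that stabilises MHC class II and CD86.

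Ligands of both kinds were higher in the libraries labelled CKO, and Cd28 was the gene of the 8 with the largest decrease. Cd40 was 17.4-fold, Cd274 7.70-fold, Cd86 5.77-fold, Cd80 3.02-fold and Icosl 1.35-fold higher by the ratio of mean FPKM, whereas Cd28 was 28.6-fold and Cd83 3.07-fold lower. Of the 8 genes, 7 had at least 1 FPKM in all 6 libraries and were tested, and all 7 were called by limma at an adjusted p under 0.05, with 5 higher and 2 lower. That count stands against a background in which 81.1% of the 9953 genes tested were called, 30.5% higher and 50.5% lower, and a call by itself is common here. A called difference of at least 2 on the log2 scale was reached by 4 of the 7, and by 5.14% of the genes tested. Libraries of the groups were fully apart in FPKM for 7 of the 8 genes and for 82.5% of the genes tested. The median difference over all 8 genes was 0.85 on the scale of log2(FPKM + 1), on which every difference here is given, against -0.14 over all genes tested. Over all genes, 3038 were higher and 5031 lower, and 4058 higher and 3874 lower after median-of-ratios scaling, which moved the differences by a median of 0.16; quantile normalization moved them by 0.10. In bulk RNA such as this, fewer cells of a type and less RNA per cell cannot be told apart.

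**Figure D1:**
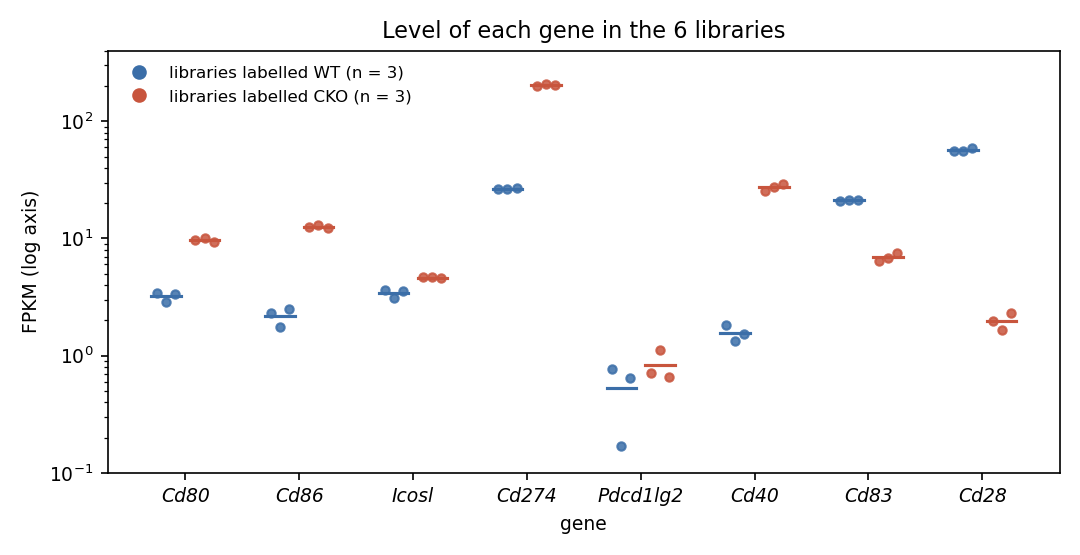
FPKM of the 8 genes (horizontal axis) on a log axis, with 1 point per library and a bar at the mean of 3; blue is labelled WT and red is labelled CKO. The groups are apart for every gene but Pdcd1lg2, and Cd28 moves from the top of the 8 genes to 1.98 FPKM while Cd274 reaches 205 FPKM.

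Cd80 and Cd86, the ligands that CD28 and CTLA-4 share, both rose. Cd86 (chromosome 16, 36603869 to 36666081, mm10, minus strand) read 2.30, 1.75 and 2.49 FPKM in the libraries labelled WT, against 12.5, 13.1 and 12.2 FPKM in those labelled CKO. Each library labelled CKO was above each labelled WT, and the difference was 2.102 (SE 0.0803, limma adjusted p = 4.77e-10). Cd80 (chromosome 16, 38455561 to 38496335, plus strand) read 3.40, 2.86 and 3.34 FPKM against 9.65, 10.03 and 9.36 FPKM. It was again higher in all 3 libraries labelled CKO, by 1.35 (SE 0.0608, limma adjusted p = 2.11e-09). The sum of both ligands went from 5.38 ± 0.671 to 22.3 ± 0.787 FPKM.

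The order of these ligands was not the same in both groups. Cd80 was the more abundant in each library labelled WT and Cd86 in each labelled CKO. The log2 ratio of Cd80 to Cd86 within a library, with 1 FPKM added to each, was 0.42, 0.49 and 0.31 in the libraries labelled WT, against -0.34, -0.35 and -0.35 in those labelled CKO. Its change of -0.75 had an exact two-sided permutation p = 0.1, the smallest that 3 against 3 libraries can give, so this design cannot bring a single ratio under 0.05. The genes lie 1789 kb apart on chromosome 16.

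Icosl, the gene of the ICOS ligand (chromosome 10, 78069302 to 78083913, plus strand), differed least among the 7 tested. It read 3.62, 3.12 and 3.56 FPKM in the libraries labelled WT, against 4.65, 4.67 and 4.61 FPKM in those labelled CKO, which did not overlap. The difference was 0.35 (SE 0.0583, limma adjusted p = 1.86e-04), and it was 0.50 and 0.49 after median-of-ratios scaling and quantile normalization. The groups were apart, but by a smaller step than for the other tested genes.

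**Figure D2:**
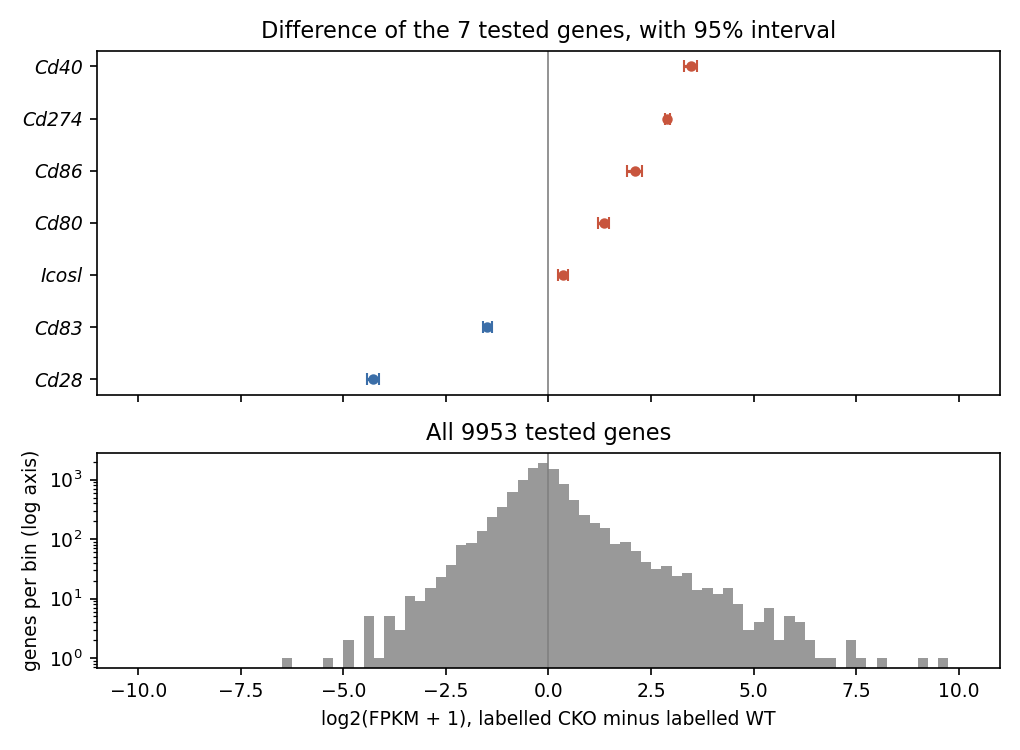
Upper panel: difference of each tested gene, labelled CKO minus labelled WT on log2(FPKM + 1), with the 95% limma interval. Lower panel: the same difference for all 9953 genes tested, as genes per bin on a log axis; Cd40 at 3.47 and Cd28 at -4.28 lie in its tails, and Icosl at 0.35 near its centre.

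Of the 2 PD-1 ligands, Cd274 rose and Pdcd1lg2 was low in both groups. Cd274 (chromosome 19, 29367455 to 29388095, plus strand) read 26.2, 26.5 and 27.1 FPKM in the libraries labelled WT, against 202, 208 and 205 FPKM in those labelled CKO. Libraries of a group lay within a few percent of each other, and the difference was 2.90 (SE 0.0294, limma adjusted p = 1.14e-14). By mean FPKM it went from place 1671 to place 169 among the 9953 genes tested. An antisense gene on the other strand shares 511 exon bases with Cd274 in GENCODE M21. The kit keeps strand per the labels, but whether the counting used it is not given in the sources used here, so reads of the antisense gene could be included.

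Pdcd1lg2 lies 22.8 kb beyond the end of Cd274 (chromosome 19, 29410919 to 29471161, plus strand). It read 0.775, 0.171 and 0.643 FPKM in the libraries labelled WT, against 0.714, 1.12 and 0.659 FPKM in those labelled CKO, from 55 and 81 reads in all. The groups overlapped, and WT replicate 2, with 6 reads, was the low library. The gene reached 1 FPKM in 1 library and so did not pass the filter, which asks for 3. Without that filter its difference was 0.27, with a 95% interval from -0.13 to 0.68 (limma adjusted p = 0.207), and the exact two-sided permutation test on FPKM gave p = 0.4. The difference was 0.09 without WT replicate 2. This does not show that the gene was at the same level in both groups.

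The log2 ratio of Cd274 to Pdcd1lg2 within a library, with 1 FPKM added to each, was 3.94, 4.56 and 4.10 in the libraries labelled WT, against 6.89, 6.62 and 6.96 in those labelled CKO. All 3 libraries labelled CKO were above all 3 labelled WT (change 2.62, exact two-sided permutation p = 0.1, the smallest possible). With 0.1 FPKM added in place of 1, which damps the low Pdcd1lg2 less, the change was 2.24. On the other side of Cd274, 54.4 kb before its start, lies Jak2, a kinase of interferon receptors, which read 10.4 ± 0.192 against 101 ± 4.21 FPKM (difference 3.16, limma adjusted p = 4.13e-14).

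**Figure D3:**
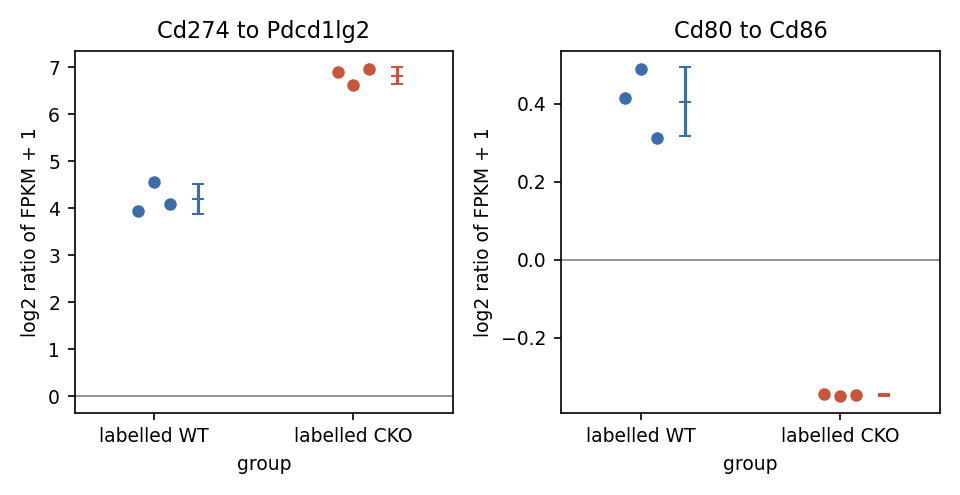
Log2 ratio of FPKM + 1 within each library for Cd274 to Pdcd1lg2 (left) and Cd80 to Cd86 (right), by group; points are libraries, and the bar beside them is the mean with 1 SD of 3. The left ratio moves from 4.20 to 6.82 and the right ratio crosses 0, from 0.41 to -0.35.

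The start regions of the PD-1 ligands are shown because the ratio of these neighbours differed between the groups. That of Cd80 is shown because a motif was found there. Each is the 250 bases before the RefSeq start on the plus strand, in the GRCm38.p6 assembly: chr19:29367188-29367437 for Cd274, chr19:29410669-29410918 for Pdcd1lg2 and chr16:38458683-38458932 for Cd80. The Cd80 stretch lies inside the gene as listed, in no annotated exon. Capitals mark motif matches.
Cd274: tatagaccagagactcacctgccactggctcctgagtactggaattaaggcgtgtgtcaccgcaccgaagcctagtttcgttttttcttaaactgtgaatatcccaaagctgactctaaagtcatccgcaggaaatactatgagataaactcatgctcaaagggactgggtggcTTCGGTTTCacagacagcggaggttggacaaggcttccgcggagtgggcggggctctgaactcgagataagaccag
Pdcd1lg2: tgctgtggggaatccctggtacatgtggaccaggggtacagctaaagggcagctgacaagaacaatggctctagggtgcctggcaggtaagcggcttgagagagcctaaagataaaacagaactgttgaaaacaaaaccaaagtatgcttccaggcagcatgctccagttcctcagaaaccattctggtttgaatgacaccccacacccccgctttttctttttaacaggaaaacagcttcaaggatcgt
Cd80: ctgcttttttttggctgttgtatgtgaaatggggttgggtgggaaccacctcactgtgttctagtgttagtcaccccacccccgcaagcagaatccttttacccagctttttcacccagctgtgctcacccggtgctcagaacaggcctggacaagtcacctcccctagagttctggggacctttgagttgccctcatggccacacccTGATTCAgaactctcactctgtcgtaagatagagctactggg
Sequences were at hand for 4 of the 8 genes, the fourth being Icosl. Both strands were searched for an IRF-type motif (GAAA, any 2 bases, GAAA), a STAT-type motif (TTC, any 3 bases, GAA), an NF-kB-type motif (GGG, any 2 bases, TTTCC) and the AP-1-type TGANTCA. A form of the IRF-type motif that is 1 base shorter at its end, and so lies within every match of the longer form, was added after the sequences were seen. Cd274 held the shorter form, read on the other strand as TTCGGTTTC on this one, 76 to 68 bases before the start, and 7.13% of 32851 such windows hold it. Cd80 held TGATTCA, 42 to 36 bases before the start, and 6.75% of windows hold the AP-1-type motif. The other motifs were not found in the 4 windows, and the shares of all windows with them were 2.98% for the longer IRF-type, 7.02% for the STAT-type and 1.41% for the NF-kB-type. These are matches of letters and show no binding.

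Cd40, the receptor for T cell help (chromosome 2, 165055627 to 165072948, plus strand), had the largest increase of the 8. It read 1.83, 1.34 and 1.53 FPKM in the libraries labelled WT, against 25.6, 27.3 and 29.1 FPKM in those labelled CKO. The lowest library labelled CKO was far above the highest labelled WT, and the difference was 3.47 (SE 0.0721, limma adjusted p = 2.70e-12). Its place by mean FPKM went from 9056 to 1655 of 9953.

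Cd83 (chromosome 13, 43784775 to 43803132, plus strand) went the other way. It read 20.9, 21.2 and 21.2 FPKM in the libraries labelled WT, against 6.44, 6.76 and 7.45 FPKM in those labelled CKO. It was lower in all 3 libraries labelled CKO, by a difference of -1.49 (SE 0.0505, limma adjusted p = 1.66e-10). Cd83 and Cd86, whose product CD83 protects from degradation, thus differed in opposite directions.

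Cd28, the receptor that CD80 and CD86 engage on T cells (chromosome 1, 60716800 to 60773359, plus strand), was the most abundant of the 8 in the libraries labelled WT. It read 55.2, 56.3 and 58.7 FPKM there and 1.99, 1.66 and 2.29 FPKM in the libraries labelled CKO, from 18404 and 616 reads in all. Every library labelled WT was far above every library labelled CKO. The difference was -4.28 (SE 0.0683, limma adjusted p = 3.23e-13), the 8th largest decrease of 9953, and the place by mean FPKM went from 719 to 8327. The exact two-sided permutation test on FPKM gave p = 0.1 for Cd28 and for each of the other 6 tested genes.

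The relatives of Cd28 on chromosome 1 were barely detected. Ctla4, the inhibitory receptor for the same ligands, starts 114 kb beyond Cd28. It had 0 reads in all 3 libraries labelled WT, where 3 reads in a library would be 0.0699 to 0.0835 FPKM, and 2, 3 and 4 reads in those labelled CKO. Icos, the next gene, read 0.249 ± 0.169 against 0.0880 ± 0.0241 FPKM, and Pdcd1, the PD-1 gene, 0.0891 ± 0.0341 against 0.0411 ± 0.0170 FPKM. Cd40lg, the CD40 ligand gene, had 0 reads in all 6 libraries, where 3 reads would be 0.130 to 0.156 FPKM. None of these 4 T cell genes passed the filter.

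Genes of the T cell receptor complex were near 0 in both groups. The summed level of Cd3d, Cd3e, Cd3g and Cd247, subunits of CD3, was 0.200, 0.247 and 0.210 FPKM in the libraries labelled WT, against 0.317, 0.318 and 0.245 FPKM in those labelled CKO, from 38 and 69 reads. The rise of the sum was in Cd247 alone, with 11 reads in the libraries labelled WT against 59 in those labelled CKO. Cd3d had 7 against 3 reads, Cd3e 7 against 3 and Cd3g 13 against 4. Cd3e and Cd3g were at 0 in CKO replicate 1 and Cd3d in CKO replicate 3. Of 28 T and NK cell markers listed, 25 were in the tables, and 2 were tested. Only 1 of these, Lat, had at least 1 FPKM in every library, and both were called lower, as were 50.5% of all genes tested. Cd4, a coreceptor of helper T cells that is also found on some myeloid cells, read 3.94 ± 0.511 against 0.483 ± 0.0431 FPKM, and Lat, an adaptor of T cells, mast cells and platelets, 2.61 ± 0.363 against 1.11 ± 0.0149. The summed level of the list was 8.93 to 9.58 FPKM in the libraries labelled WT, against 3.73 to 4.05 in those labelled CKO.

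**Figure D4:**
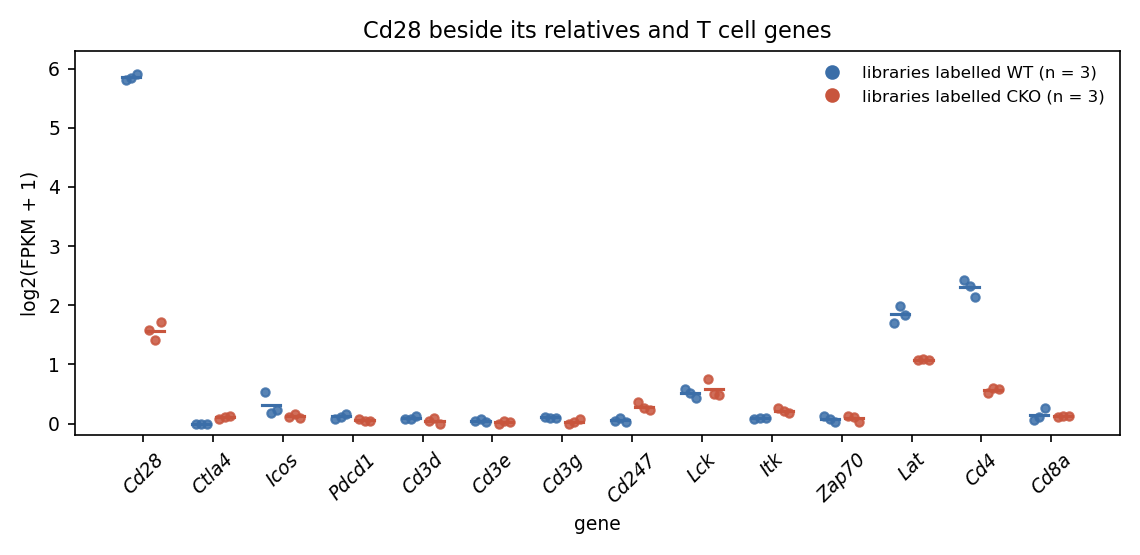
Level on log2(FPKM + 1) of Cd28, its relatives Ctla4, Icos and Pdcd1, and T cell genes, with 1 point per library and a bar at the mean of 3; blue is labelled WT and red is labelled CKO. Cd28 stands far above every other gene in the libraries labelled WT, and the CD3 subunits lie near 0 in both groups.

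In order of mean FPKM, the libraries labelled WT had Cd28, Cd274, Cd83, Icosl, Cd80, Cd86, Cd40 and Pdcd1lg2, where Icosl and Cd80, and Cd86 and Cd40, overlapped between libraries. In those labelled CKO the order was Cd274, Cd40, Cd86, Cd80, Cd83, Icosl, Cd28 and Pdcd1lg2, with no overlap between neighbours. Cd28 went from the first place to the seventh and Cd40 from the seventh to the second.

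Most genes listed for CD40 signalling were higher in the libraries labelled CKO, as was Cd40, and a link between them was not tested. Beside the counts of this paragraph stand 30.5% higher and 50.5% lower over all genes tested. With median-of-ratios scaling these shares were 40.8% and 38.9%. Of 26 genes listed for CD40 signalling, all were tested, 18 rose and 5 fell, with a median difference of 0.55; with median-of-ratios scaling these were 20 and 3. Traf1, an adaptor of the receptor, read 3.80 ± 0.391 against 36.6 ± 0.869 FPKM, and Birc3, a ubiquitin ligase of the same complex, 13.9 ± 0.298 against 65.7 ± 0.910. The NF-kB inhibitors Nfkbia and Nfkbie rose by 2.89 and 2.38. Of 19 genes of interferon reception and PD-L1 induction, 14 rose and 4 fell, with a median of 0.57, and 13 rose and 3 fell among the 17 with at least 1 FPKM in every library. Beside Jak2, the transcription factor Stat2 rose by 2.85 and the feedback inhibitor Socs1 by 3.85, whereas Ifngr1, a chain of the interferon-gamma receptor, and Ciita, the coactivator of MHC class II genes, were among those that fell.

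Genes listed for CD28 signalling were called in both directions, as were all genes tested, of which 30.5% were higher and 50.5% lower. Of 27 genes listed, 23 were tested, 7 rose, 13 fell and 3 were not called, with a median of -0.44; among the 21 with at least 1 FPKM in every library 7 rose and 11 fell. For all 23, with median-of-ratios scaling 10 were called higher and 12 lower. Malt1, a protease of the NF-kB branch, rose from 6.73 ± 0.112 to 22.99 ± 0.414 FPKM. The kinase Tec and the phosphoinositide 3-kinase subunit Pik3r2 fell by 1.16 and 1.02 on the log2 scale.

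Other ligands of the same kind gave a mixed picture, as did all genes tested, of which 30.5% were higher and 50.5% lower. Vsir, which encodes the B7-like inhibitory protein VISTA, was the only 1 of 9 further B7 and butyrophilin-like genes in the tables that passed the filter, and read 105 ± 1.70 against 37.1 ± 0.369 FPKM (difference -1.48, limma adjusted p = 1.88e-12). Of 8 costimulatory ligands of the TNF superfamily 4 were tested, of which 3 rose and 1 fell, but only 1 of the 4 had at least 1 FPKM in every library, so the filter itself favoured genes that differ. Tnfsf4, the OX40 ligand gene, read 0.144 ± 0.0493 against 11.4 ± 1.78 FPKM, Tnfsf9, the 4-1BB ligand gene, 1.25 ± 0.183 against 10.6 ± 1.48, Tnfsf15 0.829 ± 0.0804 against 2.05 ± 0.183 and Tnfsf14 2.25 ± 0.476 against 1.02 ± 0.187. Of 16 other checkpoint ligands in the tables, 12 were tested, 6 rose and 5 fell (median 0.37). Lgals9, whose product galectin-9 binds TIM-3, read 38.6 ± 0.272 against 168 ± 5.64 FPKM, and Entpd1, the ectonucleotidase CD39, 34.6 ± 0.550 against 4.64 ± 0.178.

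Of 20 receptors through which T cells read such ligands, 7 were tested, with 3 higher and 4 lower. Over all genes tested, 30.5% were higher and 50.5% lower, which also stands beside the counts below. Only 4 of the 7 had at least 1 FPKM in every library, 1 of them higher and 3 lower, and the others passed the filter through the group in which they were high. The 7 include genes that myeloid cells use themselves. Cd200r1, an inhibitory receptor of myeloid cells, read 57.1 ± 1.93 against 8.84 ± 0.600 FPKM, Havcr2, which encodes TIM-3, 14.1 ± 0.716 against 7.25 ± 0.259, and Tnfrsf8, which encodes CD30, 0.852 ± 0.124 against 6.36 ± 0.146. Of 15 tested genes for the turnover and modification of the ligand proteins, 7 rose and 8 fell, with a median of -0.18; with median-of-ratios scaling these were 7 and 6. Marchf1, a ubiquitin ligase that removes CD86 and MHC class II from the surface, read 8.19 ± 0.126 against 19.5 ± 1.18 FPKM, its relative Marchf8 11.5 ± 0.290 against 5.69 ± 0.153, and Cmtm6, which keeps PD-L1 protein from degradation, 39.8 ± 1.61 against 28.1 ± 0.628.

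**Figure D5:**
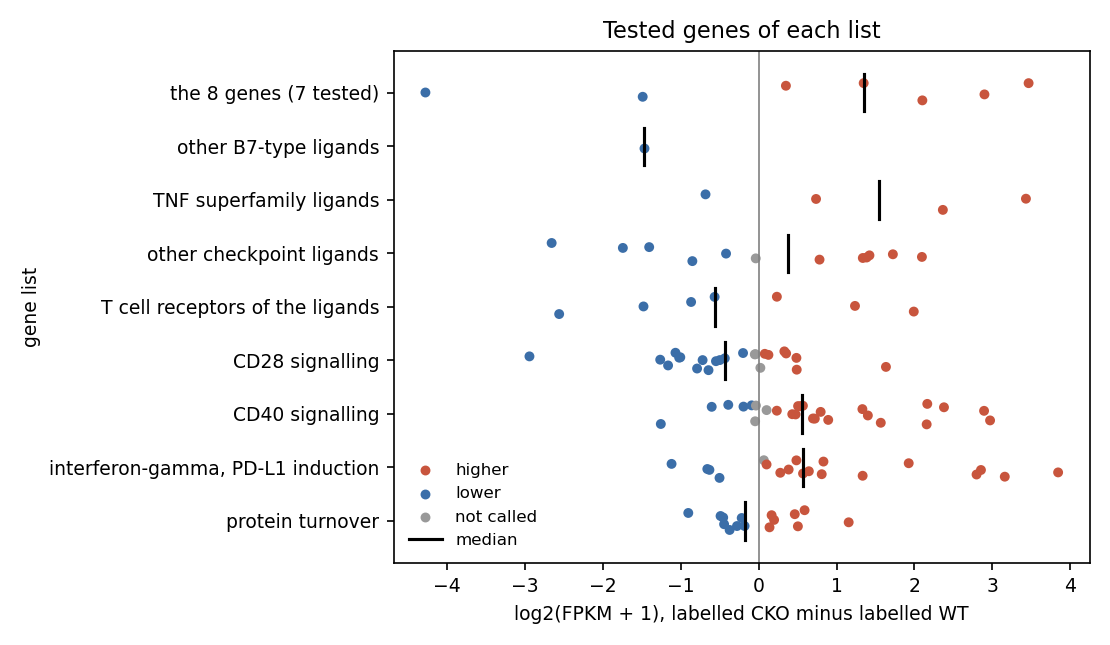
Difference of each tested gene, labelled CKO minus labelled WT on log2(FPKM + 1), in rows by gene list; red and blue mark genes called higher and lower, grey genes not called, and the black bar the median of the list. The rows of CD40 signalling and interferon-gamma lie mostly to the right of 0, and the TNF superfamily row has 3 of its 4 genes there. The row of other B7-type ligands holds a single gene, at -1.48, and the remaining rows have genes on both sides.

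Dendritic cells and B cells also carry CD40, CD80, CD83 and CD86, so their markers were read beside these genes. In these lists too, many tested genes passed the filter only through the group in which they were high, so the counts are also given for those with at least 1 FPKM in every library. All counts of this paragraph stand beside 30.5% higher and 50.5% lower over all genes tested. Of 18 dendritic cell markers 9 were tested, 5 rose and 4 fell. Among the 4 with at least 1 FPKM in every library, 2 rose and 2 fell. The summed level of the 18 was 60.2 to 66.1 FPKM in the libraries labelled WT, against 85.6 to 97.5 in those labelled CKO. Its largest part in the libraries labelled WT, Cd24a, fell from 34.8 ± 3.19 to 13.2 ± 1.34 FPKM. The largest parts in those labelled CKO were Ccr7, Ccl22 and Fscn1, which rose. Ccr7, Fscn1 and Ccl22, which passed the filter only through the libraries labelled CKO, are genes of mature dendritic cells that activated macrophages can also express, and read 0.742 ± 0.0497 against 21.1 ± 1.81, 0.858 ± 0.177 against 16.3 ± 1.32 and 0.780 ± 0.262 against 17.4 ± 2.05 FPKM. The lectin gene Clec10a, which passed only through the libraries labelled WT, read 8.09 ± 0.146 against 0.468 ± 0.0443 FPKM. Batf3 and Tcf4, also on the list, passed the filter and read 1.19 ± 0.0879 against 1.72 ± 0.189 and 2.29 ± 0.122 against 1.97 ± 0.102 FPKM. Other defining genes of the lineage were below the filter and lay in both directions. Flt3 was at 0.1001 against 0.189 FPKM, Zbtb46 at 0.0490 against 0.301 and Xcr1 at 0.0340 against 0.274, whereas Clec9a was at 0.615 against 0.109, Siglech at 0.372 against 0.0119 and Itgae at 0.197 against 0.0873, and Cd209a had 19 reads against 0. Of 15 B and plasma cell markers in the tables, 5 were tested, 1 rose and 4 fell (1 and 2 among the 3 with at least 1 FPKM in every library), with a summed level of 106 to 111 against 112 to 114 FPKM. Most of that sum was Xbp1, a secretory factor found in many cell types, at 76.4 ± 1.76 against 61.1 ± 0.776 FPKM, and Sdc1, which other cells also express, at 20.1 ± 0.891 against 48.6 ± 0.541. Cd22, a B cell lectin, fell from 5.64 ± 0.125 to 1.09 ± 0.0557 FPKM, the antigen receptor chain Cd79b from 1.55 ± 0.495 to 0.481 ± 0.214 and the joining chain gene Jchain from 2.12 ± 0.278 to 0.528 ± 0.0855, and Ms4a1, the CD20 gene, was at 0.188 ± 0.0579 against 0.0394 ± 0.0222 FPKM. Of 15 mast cell, basophil and eosinophil markers 4 were tested, none rose and 3 fell (0 and 1 among the 2 with at least 1 FPKM in every library), with a summed level of 13.3 to 15.8 against 4.67 to 5.59 FPKM. What these other cell types contributed to the 8 genes was not tested.

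The genes most like each member were taken as those with the smallest distance over the 6 libraries on log2(FPKM + 1), which describes level and group difference together. For Cd28 these were Arhgap19, at 45.5 ± 2.18 against 1.224 ± 0.141 FPKM, and the prostaglandin D synthase Hpgds, at 56.5 ± 3.14 against 3.46 ± 0.205. For Cd274 they were Marcksl1, at 24.3 ± 1.06 against 195 ± 5.66 FPKM, and the class I gene H2-T22, at 31.1 ± 0.191 against 213 ± 5.05. Cd40 was nearest to Ppp1r12b and Trim30c, Cd86 to Grhpr and Sipa1l1, Cd80 to Naa25 and Tnip3, Cd83 to Fam219a and Herpud1, and Icosl to Zfp609 and Orc4.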

How the data were processed

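Values are FPKM, which the authors deposited as 1 table per library, per the file headers. Among the tools in the submitters' processing notes are the aligner HISAT2 2.1.0 and the counter featureCounts 1.6.2, and the build is mm10; parameters and strand setting are not given in the sources used here. Scaled by gene length and library depth, 100% of values were whole reads to within 0.01, which gave back the reads of each gene. They served for depth, floors of 3 reads and 1 alternative test; floors cover counting error only, whereas limma intervals rest on the spread between libraries. Every pair of libraries differed by more than counting noise (chi-square per degree of freedom 2.16 to 3.18 within groups).

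Groups came from the sample titles. Genes with at least 1 FPKM in at least 3 of the 6 libraries were tested with limma 3.58.1 (eBayes with an intensity trend, R 4.3.3) on log2(FPKM + 1), labelled CKO minus labelled WT, which understates changes of low genes. Calls were made at a p under 0.05 after Benjamini-Hochberg adjustment over all 9953 genes tested. Exact permutation tests used scipy 1.17.1 in Python 3.11.15. The limma step was tested on simulated reads in which few genes were changed. That setting is unlike these data, where 81.1% of the genes tested were called, so it does not cover them. The members and the 13 other gene lists were chosen with earlier results of these data known. Named were the 8 members, their T cell receptors, Alkbh5, Lyz2 and Apoe. From each list up to 4 tested genes with the smallest p were named, with genes that define a cell type. For each tested member the 2 nearest genes were named. Cd24a, Batf3, Tcf4, Cmtm6, Ifngr1 and Ciita were named after their values were seen. Gene positions equalled those of GENCODE M21, in which all 8 members are protein coding. Some genes of the lists that the rule would name are not reported here.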

Additional observations from a re-analysis of the deposited data

How the results depend on the processing

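The fits were repeated with a replicate block, with 1 library omitted in turn, with a pseudocount of 0.1 or 0.5, with no filter or with one that asks for a mean of 5 FPKM, with 2 other scalings (median-of-ratios, quantile), with array weights, without the intensity trend, and with limma voom on the recovered reads. Pdcd1lg2, below the filter, has values only for the omitted libraries, the pseudocounts, median-of-ratios scaling and no filter. Over these, 184 of 185 values kept their direction and their side of the threshold or moved by less than the spread between libraries. The difference of Pdcd1lg2 moved further, to 0.70 with a pseudocount of 0.1, and the cause was not tested. Without 1 library it ran from 0.09 to 0.39. Counts of genes entered as totals, so a shift between higher and lower calls was not scored. The main fit had 3038 higher and 5031 lower, and median-of-ratios scaling 4058 and 3874. Calls of some list genes also changed with the scaling. Cd28 stayed between -4.84 and -4.13, Cd40 between 3.402 and 4.12, Cd274 between 2.88 and 3.08, Cd86 between 2.001 and 2.54, Cd80 between 1.29 and 1.597, Cd83 between -1.62 and -1.32 and Icosl between 0.30 and 0.50. The highest limma adjusted p of these 7 genes was 0.00145, for Icosl without the filter. Icosl had no value at a mean of 5 FPKM, where 6 members were tested and called. The number of genes called ran from 5387 at that filter to 9602 with none. With the replicate number as a block 8041 genes and 7 members were called. The replicate numbers do not pair the libraries: deviations of libraries with the same number correlated at 0.0188, 0.0120 and -0.0388. Low depth limits Pdcd1lg2, Ctla4, Icos and Pdcd1, each with under 100 reads per group.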
